A study of Homo sapiens with 15 samples.

Results

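The comparison described here was the induction of C258A FOXA1 by doxycycline in engineered 22Rv1 cells, read as FOXA1 ChIP-seq peaks with and without the inducer. 22Rv1 is an established human prostate carcinoma line. Its members were all 12752 peaks listed without doxycycline and all 13299 peaks listed with doxycycline, together 26051 of the 249079 peaks in the series. A no-doxycycline peak that overlapped a doxycycline peak by at least 1 bp was called kept, and one that overlapped none was called lost. A doxycycline peak that overlapped no no-doxycycline peak was called added.

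The series held 15 samples, of which 12 were FOXA1 ChIP libraries with 1 peak list each and 3 were inputs, not analysed here. The engineered cells of this comparison stably expressed the Y36C form of PHF5A and carried a doxycycline-inducible C258A FOXA1, and both libraries received DMSO, given as 0.1% for 3 h in the treatment protocol. The labels give no dose or time for doxycycline, and do not say whether the line is 1 clone. Look-up lists came from a sister line with inducible wild-type (WT) FOXA1 in the same Y36C-PHF5A background, and from parental cells given DMSO, PladB, 1 of the stereoprobes at 20 µM (WX-02-23, WX-02-43), siRNA against FOXA1 (siFOXA1) or control siRNA (siControl). For each engineered line there were 3 lists: uninduced, induced with DMSO, and induced with WX-02-23.

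FOXA1 is a forkhead transcription factor of the pioneer class, which can bind its sites on nucleosomal DNA and allow other factors to enter closed chromatin. In prostate epithelium it works beside the androgen receptor at enhancers of luminal genes. The C258A form has alanine in place of a cysteine, and cysteines are residues with which many covalent ligands react. PHF5A is a subunit of the SF3b splicing complex, which pladienolide B (PladB) binds. The comparison asks where FOXA1 was found once the mutant protein was induced, without any stereoprobe. The antibody was against FOXA1 and the labels name no tag, so endogenous and induced protein were read together, and how much of each was present was not analysed here.

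Each condition had 1 library, so no difference below has a replicate check and none was tested. Intervals are Wilson 95% binomial intervals for shares of peaks: they take peaks as independent and hold counting error alone. Read totals were not analysed here, so depth is unknown, and more or fewer called peaks can come from depth or enrichment as well as from binding. A peak called from many cells cannot tell more bound cells from stronger binding per cell. The score of a peak is the authors' own value and was used only to rank peaks within its list. The lowest score in all 12 lists was 90. At the top, 45 no-doxycycline and 3 doxycycline peaks shared a score of 3100, so ranks among those are arbitrary.

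The C258A lists with and without doxycycline were close in length and differed at most of their sites. Of 12752 no-doxycycline peaks, 4490 were kept (35.2%, 34.4 to 36.0%) and 8262 were lost (64.8%). Of 13299 doxycycline peaks, 8802 were added (66.2%, 65.4 to 67.0%) and 4497 lay at kept sites. The lists covered 7.47 Mb without and 7.42 Mb with doxycycline, and added peaks made up 4.81 Mb of the latter. In the WT line 73.3% of 8575 no-doxycycline peaks were kept, 26.7% were lost, and 80.4% of 31735 doxycycline peaks were added. With every list at no more than 12752 peaks, the kept share was 44.3% in the WT and 34.1% in the C258A line. The WT no-doxycycline list stayed at 8575 peaks there, so lengths were not equal. With the top 8000 peaks of every list the shares were 34.1% in the WT and 32.8% in the C258A line.

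Few sites lay near the boundary of the definition. Only 5 kept no-doxycycline peaks rested on an overlap of 1 to 50 bp, with a median score of 107 and a median width of 463 bp. Just outside it, 16 lost peaks had a doxycycline peak no more than 100 bp away, with a median score of 154 and a median width of 559 bp. Among added peaks, 25 had a no-doxycycline peak no more than 100 bp away. Nearly all kept peaks paired singly, giving 4446 one-to-one pairs whose centres were a median of 34.5 bp apart.

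Kept peaks were the broad, high-scoring part of the no-doxycycline list. Their median score there was 403 and their median width 633 bp, against 148 and 533 bp for lost peaks. In the 10% of no-doxycycline peaks with the highest scores, 1233 of 1276 were kept (96.6%, 95.5 to 97.5%). The share was 70.7% in the next 10%, 47.0% in the 10% after that and 11.9% (10.3 to 13.8%) in the 10% with the lowest scores. Width followed score: within the second to ninth score bins, the median widths of kept and lost peaks differed by at most 12 bp. In the top bin they were 764 bp for kept and 723 bp for lost peaks, and in the lowest 429.5 and 455 bp.

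The doxycycline list was built differently. Added peaks were 46.6% (43.9 to 49.3%) of its highest-scoring 10% and 74.0% (71.5 to 76.3%) of its lowest-scoring 10%. Between the fourth and the ninth bin the share stayed between 66.8% and 71.4%. Added peaks had a median score of 156 and a median width of 521 bp, and the kept peaks of the same list 185 and 556 bp. In the top bin, however, added peaks were the wider ones, at 786.5 bp against 746 bp. Added sites were thus present from the top of the induced list down, while lost sites were concentrated in the lower part of the uninduced list.

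**Figure D1:**
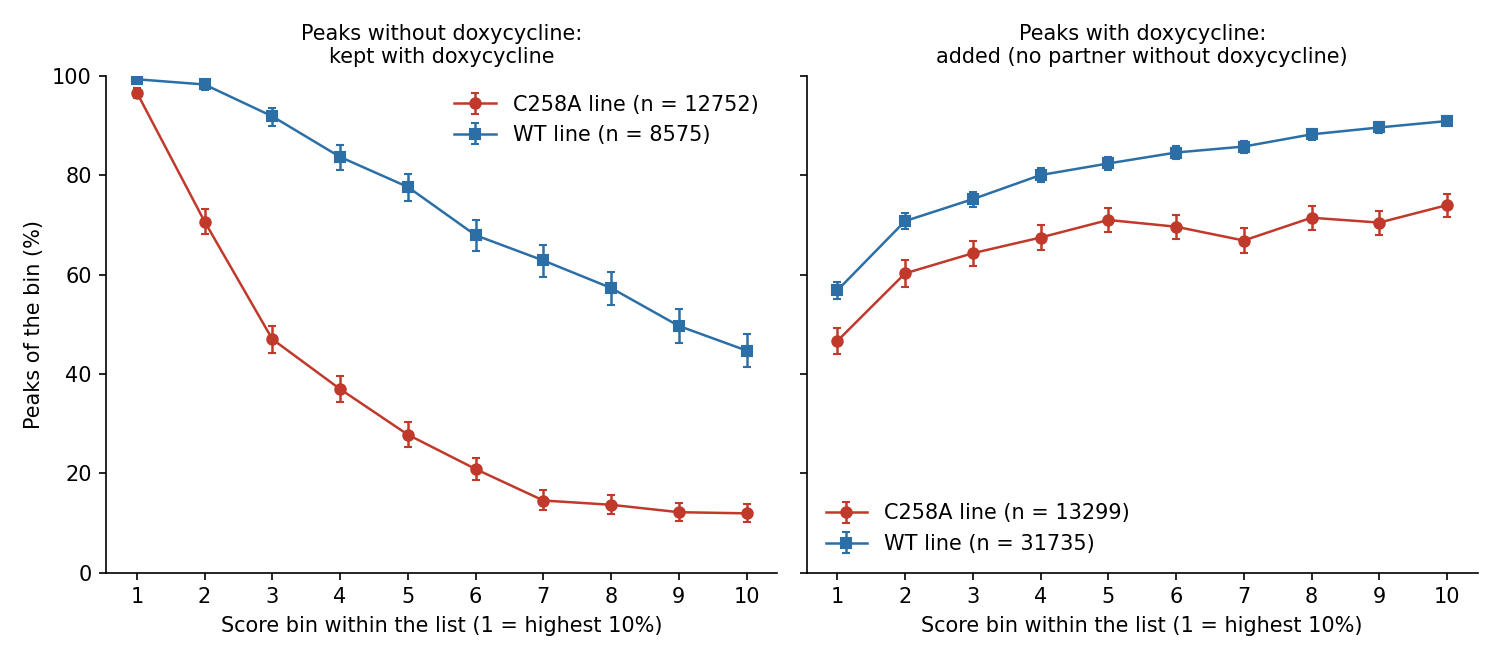
Share of peaks kept (left, lists without doxycycline) or added (right, lists with doxycycline) in 10 score bins of each list, in the C258A line (circles) and the WT line (squares). Bars are Wilson 95% intervals for counting error. The C258A kept share goes from 96.6% in the top bin to 11.9% in the lowest, and 46.6% of the top doxycycline bin was added.

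List length weighs on any such share, so equal numbers of top peaks were compared. Of the top 1000 no-doxycycline peaks in the C258A line, 33.0% (30.2 to 36.0%) were among the top 1000 doxycycline peaks, although 98.7% were somewhere in the whole doxycycline list. With the top 2000, 5000 and 8000 peaks of both lists the shares were 33.7%, 33.0% and 32.8%. The corresponding shares in the WT line were 32.7%, 33.5%, 33.2% and 34.1%, with overlapping intervals at each length. In the other direction, 55.1% (52.0 to 58.2%) of the top 1000 C258A doxycycline peaks were anywhere in the no-doxycycline list.

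Kept peaks therefore held different places in the lists. Over the 4446 pairs, the median peak stood 21.7% of the way down the no-doxycycline list and 43.0% of the way down the doxycycline list. In 37.3% of pairs the doxycycline position was lower by over 25 percentage points, and in 10.1% it was higher by as much. Spearman's rho between the paired scores was 0.43, a description over sites that share the same 2 libraries.

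**Figure D2:**
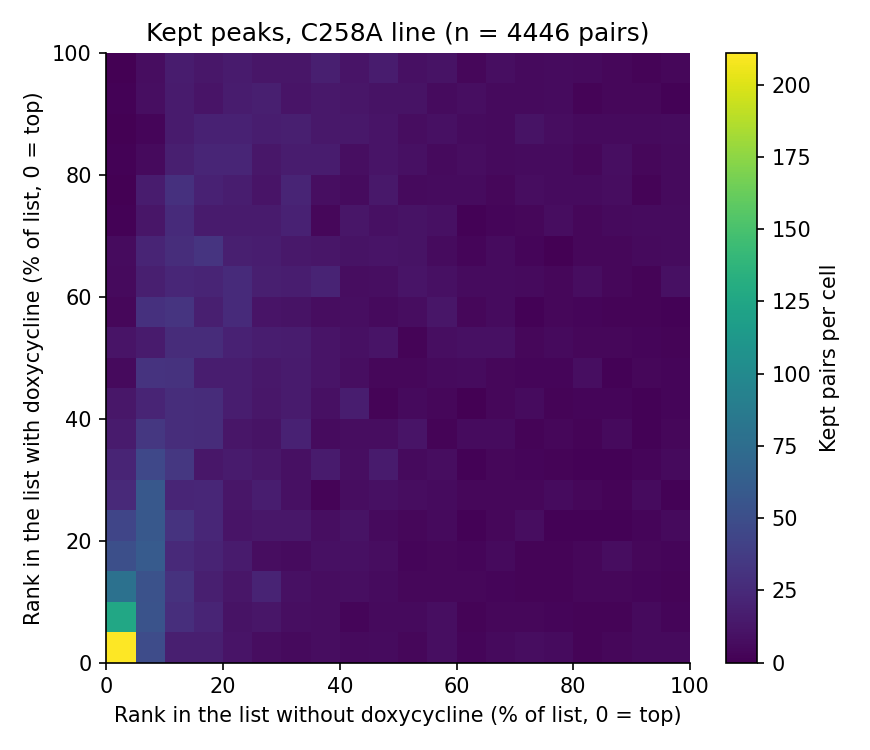
Position of the 4446 one-to-one kept peaks in the no-doxycycline list (horizontal) and in the doxycycline list (vertical), as a percentage of each list counted from the top score. Colour gives the number of pairs per cell. Pairs crowd at the top of the no-doxycycline list and spread along the doxycycline list, with medians of 21.7% and 43.0%.

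The lost and kept peaks were parental FOXA1 sites, and most added peaks were not. In the parental DMSO list, 96.5% (95.9 to 97.0%) of kept, 90.8% (90.2 to 91.4%) of lost and 11.7% (11.04 to 12.38%) of added peaks were called. Over the whole lists the shares were 92.8% without and 40.4% with doxycycline. The parental list is the longer, and with every list at no more than 12752 peaks the shares were 84.2% of kept, 62.8% of lost and 3.59% of added peaks. At like scores, kept and lost peaks had like shares: in the top bin all 43 lost peaks were parental, and in the lowest bin 81.2% of lost and 81.6% of kept peaks were. The added share varied little with score, from 10.3% to 13.2% over the 10 bins. Widening the look-up to all 5 parental lists other than siFOXA1, 95.6% of lost and 17.0% (16.2 to 17.8%) of added peaks were in at least 1 of them.

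Seen from the parental side, 38.1% of the 30557 DMSO peaks were called in C258A cells without doxycycline and 17.3% with it. The 4294 called in both had a median parental score of 873, against 423 for the 7345 called without doxycycline only. A smaller set of 980 was called with doxycycline only and had a median parental score of 190. The remaining 17938 (58.7%) were called in neither list and had a median of 162. The sites called with doxycycline only thus sat among the weaker parental peaks, yet 97.3% of them were in the WT doxycycline list and 8.06% in the WT list without doxycycline. For the sites called in neither C258A list, these shares were 13.3% and 5.11%. Both sets lie outside the C258A no-doxycycline list by definition.

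Added peaks, like the whole doxycycline list, were nearly all induced-list peaks elsewhere. The WT doxycycline list with DMSO called 91.2% (90.6 to 91.8%) of added peaks. The C258A list with doxycycline and WX-02-23 called 89.6% (88.9 to 90.2%) of them. Over all C258A doxycycline peaks these shares were 93.6% and 90.8%, so the added peaks lay near their own list. The WT list without doxycycline called 1.14% (0.935 to 1.38%) of added peaks, against 27.0% of all C258A doxycycline peaks. A low share is largely set by the definition of added peaks. They overlap no C258A no-doxycycline peak, and 85.3% of WT no-doxycycline peaks overlap 1. All 3 other induced lists together shared 68.0% of added peaks. Only 203 added peaks (2.31%) were in none of the other 10 lists, with a median score of 102. In the highest score bin 99.7% of added peaks were in the WT doxycycline list, and in the lowest 77.7%. Taken as a share of the longer list, 34.5% of the 25519 peaks added in the WT line were in the C258A doxycycline list. These WT shares depend on length: with the WT doxycycline list reduced to 13299 peaks, 63.8% of the C258A added peaks were in it.

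**Figure D3:**
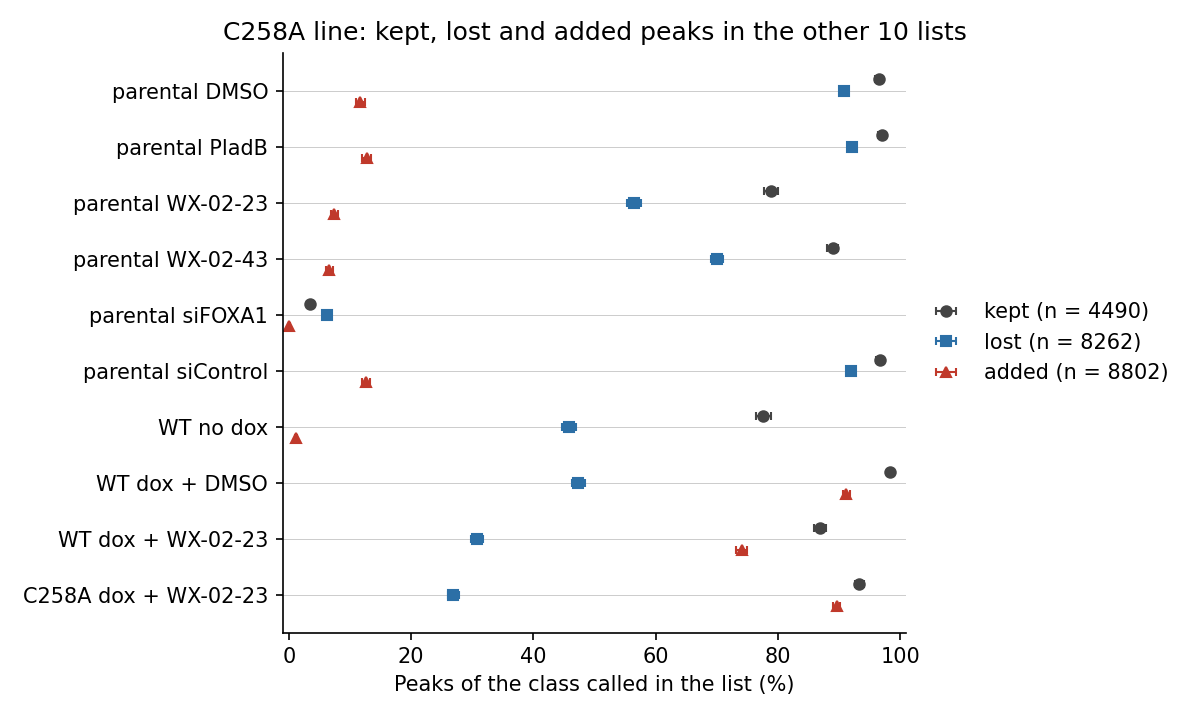
Share of kept (circles), lost (squares) and added (triangles) peaks of the C258A line that were called in each of the other 10 lists, with Wilson 95% intervals. Added peaks lie at 11.7% in the parental DMSO list and at 91.2% in the WT list with doxycycline and DMSO, and lost peaks at 90.8% and 47.3%.

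The WX-02-23 library of the induced C258A line gave a further, differently treated look at the induced state. It called 93.3% of kept peaks and 26.9% (26.0 to 27.9%) of lost peaks, in a list of 20609 peaks. Over all C258A no-doxycycline peaks the share was 50.3%. With every list at no more than 12752 peaks, the lost share was 10.8%. A total of 6039 no-doxycycline peaks (73.1% of the lost ones) were in neither induced C258A list, and 7884 added peaks were in both. Calls in it followed score: 90.7% of the 43 lost peaks in the top bin were called there, against 12.7% in the lowest bin. Lost peaks called there had a median score of 213, and the others 136.

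In the WT line, 47.3% (46.2 to 48.4%) of the C258A lost peaks were called with doxycycline. The share was 65.3% over all C258A no-doxycycline peaks and 98.3% over kept ones. With every list reduced to at most 12752 peaks the lost share was 12.2%. At the deposited lengths, lost peaks that the WT line also had without doxycycline numbered 3786, and 63.3% of these were in its doxycycline list, against 33.8% of the other 4476. A set of 3629 lost peaks (43.9%) was in none of the 3 other induced lists, against 27 kept peaks (0.601%).

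Sites called without doxycycline in both lines allow the same loci to be followed. There were 7269 such C258A peaks. With doxycycline, 47.9% (46.8 to 49.1%) were called in the C258A line and 80.3% (79.4 to 81.2%) in the WT line. Both lines called 3443 of them, the WT line alone 2397, the C258A line alone 40, and neither 1389. With the WT doxycycline list reduced to the C258A length, 51.4% (50.2 to 52.5%) were called in WT, and the numbers became 3025 in both, 709 in WT alone, 458 in C258A alone and 3077 in neither. Of the 5483 no-doxycycline peaks found in the C258A line only, 18.4% were kept.

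The siFOXA1 list, which held peaks called after knockdown, was looked up for each class. It called 512 lost peaks (6.20%, 5.70 to 6.74%), 152 kept peaks (3.39%, 2.89 to 3.96%) and 6 added peaks (0.0682%, 0.0312 to 0.149%). Over the whole C258A lists it called 5.21% of no-doxycycline and 1.19% of doxycycline peaks, so the lost share lay near that of its own list. The added share lay below that of its list. Of the 158 doxycycline peaks at siFOXA1 peaks, however, 152 lay at kept sites, which the added class leaves out by definition. Of the 664 no-doxycycline peaks at such sites 22.9% (19.9 to 26.2%) were kept, below the 35.9% of peaks elsewhere. How much FOXA1 remained after knockdown was not analysed here.

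Most added peaks lay far from any no-doxycycline peak. The median distance from an added peak to the nearest no-doxycycline peak, edge to edge, was 67.8 kb (65.5 to 69.9 kb, a distribution-free 95% interval). Of the 8802 added peaks, 201 (2.28%) lay within 1 kb, 845 within 1 to 10 kb, 4416 (50.2%) within 10 to 100 kb and 3340 (37.9%) farther away. Parental DMSO peaks that the no-doxycycline list lacked lay at a like median distance of 68.3 kb. The score of an added peak made little difference, with medians of 72.1 kb in the top bin and 73.0 kb in the lowest. The added peaks outside parental DMSO peaks were a median of 33.3 kb from the nearest of the parental peaks, a list with more members.

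Among themselves, added peaks lay closer together than lost ones. The median distance to the next added peak was 55.9 kb (53.5 to 58.0 kb), and to the next lost peak 93.8 kb (89.9 to 96.3 kb), although the classes are close in number. Within 10 kb of another member of its class lay 1830 added (20.8%) and 987 lost peaks (11.9%). The whole lists had medians of 40.3 kb with and 54.1 kb without doxycycline.

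**Figure D4:**
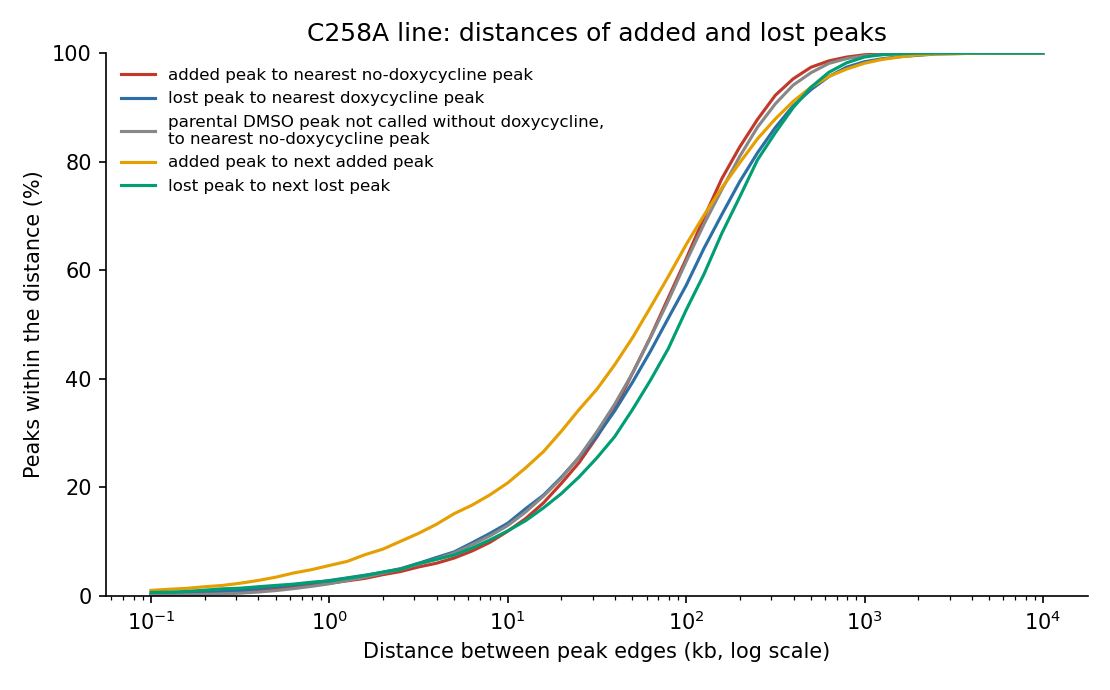
Cumulative share of peaks within a given edge-to-edge distance (log scale, kb) for 5 kinds of distance in the C258A line. The curve from added to nearest no-doxycycline peak (median 67.8 kb) runs with that of parental peaks missing from the list (68.3 kb), and added peaks lie closer to each other (55.9 kb) than lost peaks do (93.8 kb).

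The chromosomes took unequal parts in the exchange. Gene density was taken as protein-coding genes in RefSeq per Mb of the span covered by peaks. Among the 22 autosomes, 13 had more peaks with doxycycline and 9 had fewer. Chromosome 13, with 2.94 genes per Mb, had 473 peaks without and 646 with doxycycline, a ratio of 1.37. Chromosome 19, with 24.5 genes per Mb, had 166 and 64 peaks, a ratio of 0.386, and chromosome 22 had 120 and 60. Chromosomes 21 and 4 had ratios of 1.28 and 1.25, and chromosome 17 one of 0.701, against 1.04 for the whole list. Spearman's rho between gene density and this ratio over the 22 autosomes was -0.76, given as a description because all points come from the same 2 libraries.

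The kept share differed between chromosomes as well. Among autosomes the kept share was highest on chromosome 13, at 41.4% (196 of 473 peaks), and lowest on chromosomes 22 and 19, at 18.3% (22 of 120) and 18.7% (31 of 166), around the 35.2% of all chromosomes. Chromosome 13 had 1.63 added peaks for each lost one, and chromosome 19 had 0.244. The 6 autosomes with the most genes per Mb (11, 16, 17, 19, 20 and 22) held 12.5% of all no-doxycycline and 9.39% of all doxycycline peaks, and 13.4% of lost and 8.62% of added peaks. The lost and added shares thus lay near those of their own lists. On them 30.6% (28.4 to 32.9%) of no-doxycycline peaks were kept, against 38.0% (36.5 to 39.7%) on the 6 autosomes with the fewest (4, 5, 8, 13, 18 and 21). The order held among the top 3 score bins, at 65.8% (61.4 to 70.0%) and 75.2% (72.5 to 77.7%), and among the other 7, at 15.8% and 22.1%. Added peaks were 60.8% (58.0 to 63.4%) of doxycycline peaks on the gene-dense and 67.9% (66.4 to 69.3%) on the gene-poor group.

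The WT line had a like ordering of chromosomes at a higher level. Its ratio was 3.70 over the whole list, its own Spearman's rho with gene density was -0.81, and rho between the ratios of both lines over the 22 autosomes was 0.90, again as a description. Base composition, read mappability and copy number by chromosome were not analysed here, and their part in the pattern was not tested.

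**Figure D5:**
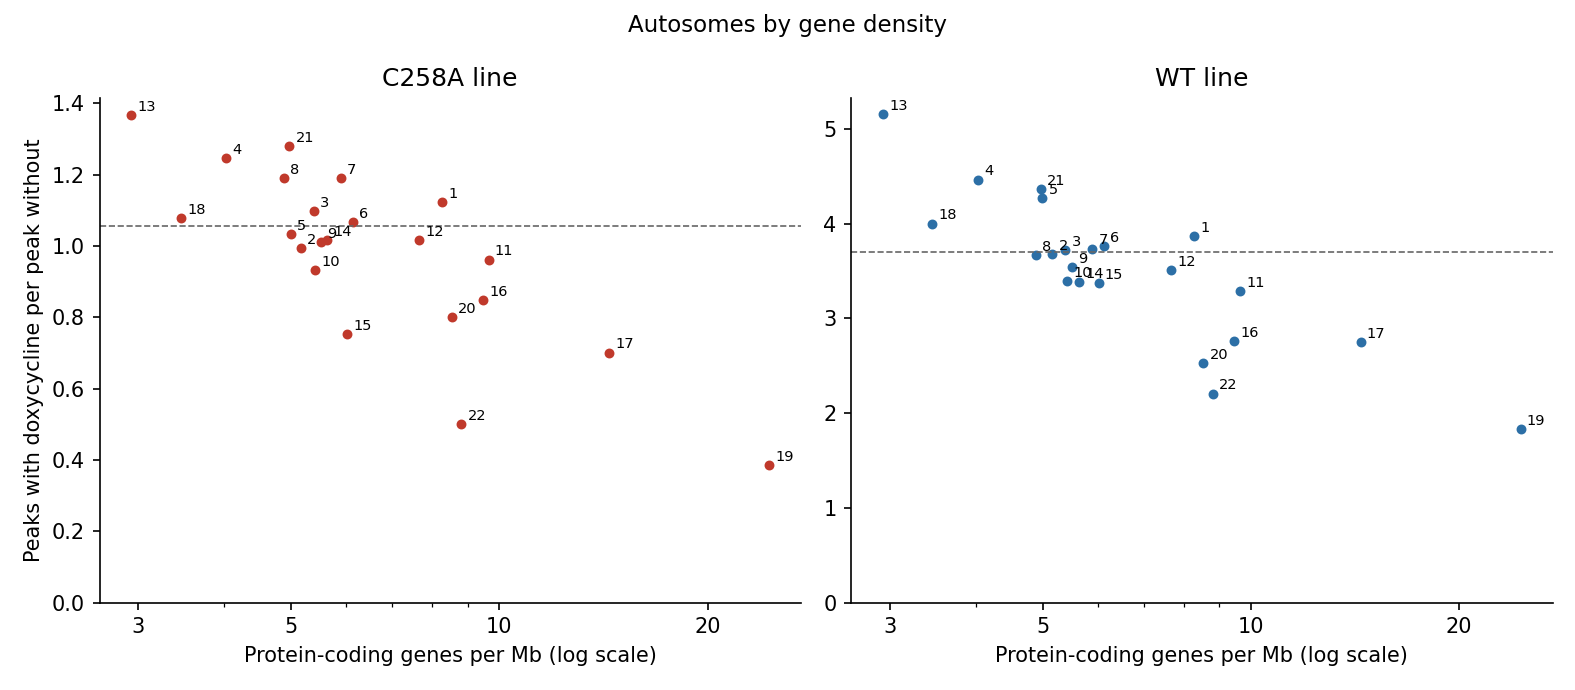
Peaks with doxycycline per peak without, for each of the 22 autosomes (points, labelled by number), against protein-coding genes per Mb on a log scale, in the C258A line (left) and the WT line (right). Dashed lines give the ratio over all autosomes. Chromosome 13 (1.37) and chromosome 19 (0.386) mark the ends in the C258A line, and the vertical scales differ between the panels.

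On a finer scale, added and lost peaks were counted in windows of 1 Mb. A peak of either list was in 2807 windows, and 2059 of them (73.4%) held both an added and a lost peak. The 5% of windows with the most added peaks held 21.8% of them, against 14.3% for lost peaks in the 5% richest in those. The classes come from different lists, whose own window shares were not analysed here. As a whole the doxycycline list was the more closely spaced, with a median of 40.3 kb against 54.1 kb. The windows below were singled out after their counts were seen. The fullest, chr1:190000001-191000000, had 7 peaks without and 35 with doxycycline, of which 30 were added. It lies in an 8 Mb stretch, chr1:188000001-196000000, with 68 peaks without doxycycline, 212 with it, 174 added and 30 lost. The parental DMSO list had 93 peaks in this stretch and the WT lists 48 without and 350 with doxycycline, and 155 of the 174 added peaks were WT doxycycline peaks. Of the peaks of chromosome 1, it held 174 of 883 added (19.7%), 212 of 1306 doxycycline and 68 of 1163 no-doxycycline peaks (5.85%). The added share is thus to be read beside that of all doxycycline peaks, of which added peaks are a part.

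Some windows had peaks in 1 of the lists only. The window chr5:27000001-28000000 had no peak without doxycycline and 15 with it, and 2 parental DMSO peaks. The window chr6:30000001-31000000 had 9 peaks without doxycycline, all lost, with 20 parental DMSO peaks. Such windows accounted for 256 added peaks (2.91%) and 550 lost peaks (6.66%). Genes in these windows were not analysed here, because the gene table in use is of another genome build.

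Single peaks show the classes by position, in hg19. The highest-scoring added peak, chr4:180837192-180838118, had a score of 2270 and ranked 12 of 13299. It was 36.3 kb from the nearest no-doxycycline peak and was called in all 4 induced lists and no other. The same held for chr22:28442279-28443134 (rank 15) and chr9:18085195-18086059 (rank 19). The other 2 of the top 5 were called in parental cells too: chr12:71957411-71958893 (rank 16) in the DMSO, WX-02-23, WX-02-43 and siControl lists, and chr3:46948395-46950009 (rank 18) in the PladB, WX-02-23 and siControl lists. The strongest added sites were thus of both kinds, those called only after induction and those also found in parental cells.

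Added peaks at parental DMSO peaks included weak parental sites. The peak on chromosome 12 had a parental DMSO score of 169, under the median of 228 in that list. The next, chr7:54314906-54316022, ranked 28 with doxycycline, had a parental score of 124 and lay 739 kb from any no-doxycycline peak. The third, chr6:154801735-154802846, ranked 42 and had a parental score of 557. Added peaks of no other list were weak, and the best of them, chr16:33082825-33083556, ranked 5040 with a score of 202.

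The highest-scoring lost peak, chr22:41128518-41129145, had a score of 1167 and ranked 566 of 12752. It was called in every other list, siFOXA1 included, and its nearest doxycycline peak was 309 kb away. The next 3 lost peaks were chr3:8843292-8843941 (rank 679), chr14:37240351-37240926 (rank 708) and chr7:82896239-82897186 (rank 733), called in all lists but siFOXA1 and the C258A doxycycline list with DMSO. The fifth, chr16:34794177-34794925 (rank 780), was called in every list but that one. So the top 5 lost peaks were absent from a single induced list. The strongest lost peak that no induced or WX-02-23 list called was chr10:118349317-118349929, with a score of 546 and rank 1867, found in both no-doxycycline lists and in parental DMSO, PladB and siControl cells.

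Kept peaks near the top of both lists included chr10:110481473-110482352 and chr13:82447943-82449029. Without doxycycline both were among the 45 peaks tied at a score of 3100, so their order there is arbitrary. With doxycycline the former ranked 11 and the latter was 1 of the 3 tied at 3100. The former was called in all lists but siFOXA1, and the latter in all 12. The largest upward difference in position was at chr1:148823954-148824493, ranked 12625 without and 100 with doxycycline, a site called only in the induced lists and in uninduced C258A cells. The largest downward difference was at chr10:68874544-68875237, ranked 682 without and 12833 with doxycycline, which all lists but siFOXA1 called.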

How the data were processed

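FOXA1 ChIP-seq peak lists of 22Rv1 cells were used as deposited, with a separate, unpooled list for each library. The submitters' processing notes name bcl2fastq, Bowtie2 and the hg19 build. The peak names begin with MACS, and the caller's version, thresholds and control are not given in the sources used here. The deposited score of each peak is the authors' own value, whose definition the files do not state, and it ranked peaks within lists only. No file gives counts or read totals, so depth is unknown.

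Starts were read as counted from 0 and are printed from 1. Overlaps were computed in python 3.11.15 with pandas 2.3.3, and were checked on simulated lists and against bedtools 2.31.1. Score bins are 10 equal groups of a list. Wilson intervals came from scipy 1.17.1, and medians have order-statistic intervals. Genes per chromosome were counted in the RefSeq table of GRCh38.p14, none of whose coordinates was used. No sequence, motif or nearest gene was analysed here. Groups follow the sample titles. Named peaks are the highest-scoring of each class, and the kept peaks with the best and the most different ranks. The classes, lists and comparisons were chosen with earlier results of these data known. Alternatives changed the overlap, the score threshold, list length and the chromosomes used.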

Additional observations from a re-analysis of the deposited data

Results flagged for a closer look

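Doxycycline went with differences of opposite sign in peak width in the engineered lines, while the length covered barely differed in the C258A line. Each condition had 1 library, and whether the lines differ was not tested. Median peak width differed by -29 bp in the C258A line (562 bp without, 533 bp with doxycycline) and by 191 bp in the WT line (443 and 634 bp). At sites paired one to one, the doxycycline peak was the narrower in 73.1% (71.7 to 74.3%) of 4446 C258A pairs and in 3.05% (2.65 to 3.51%) of 6136 WT pairs. The length covered by peaks differed by -0.0439 Mb in the C258A line (7.47 Mb without, 7.42 Mb with doxycycline) and by 17.3 Mb in the WT line (3.96 and 21.3 Mb). Read depth was not analysed here, and its part in these differences was not tested.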

How the results depend on the processing

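For 21 results, there were 102 alternative values: 61 lay inside the main interval, or inside 1.5 times the main count, and 41 moved. None has a test, so no call could change. Values from autosomes alone (19) and without peaks at siFOXA1 peaks (3) all stayed. Of the 8262 lost peaks 6039 were absent from both induced C258A lists, and of the 8802 added peaks 7884 were in both. These 2 counts stayed only by the wide limit of 1.5 times the main count. The first of these alternatives, put as a kept share, was 52.6% against 35.2% and moved. Alternatives on siFOXA1, on both induced lists, on gene density and on the length of the WT doxycycline list alone were chosen after seeing the data. The deposited depth is unknown, so equal list length is the nearest control for it. Since each group had 1 library, no paired analysis was possible because no group had a second replicate.

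A reciprocal overlap of 50% gave kept shares of 34.1% in C258A and 60.5% in WT cells. Shares at parental DMSO peaks became 77.5% for no-doxycycline, 25.9% for doxycycline, 80.0% for kept, 76.2% for lost and 9.94% for added peaks. Added peaks were in the WT doxycycline list at 83.6% and in the C258A WX-02-23 list at 87.3%, and lost peaks in the WT doxycycline list at 45.6%. A gap of up to 500 bp gave a C258A kept share of 36.3% and put 41.4% of doxycycline peaks at parental DMSO peaks. For a whole list, the stricter overlap can only lower a share and the gap can only raise it. The kept, lost and added classes change their members with the setting, so their shares can go either way.

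The top 50% of each list gave a kept share of 33.7% in C258A and 70.7% in WT cells, 4225 lost and 4496 added peaks, and a median distance of 129 kb from added to no-doxycycline peaks. Median widths became 699 bp for kept, 610 bp for lost and 609 bp for added peaks. Doxycycline peaks lay at parental DMSO peaks at 37.6% and added peaks at 9.48%. Added peaks were in the WT doxycycline list at 90.4% and in the C258A WX-02-23 list at 91.4%, and lost peaks in the latter at 24.5%.

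With every list at no more than 12752 peaks, 34.1% of C258A and 44.3% of WT no-doxycycline peaks were kept, and added peaks had a median width of 526 bp. The WT no-doxycycline list, at 8575 peaks, was not cut by this. Shares at parental DMSO peaks were 70.1% for no-doxycycline, 31.2% for doxycycline, 84.2% for kept, 62.8% for lost and 3.59% for added peaks. Added peaks were in the WT doxycycline list at 63.7% and in the C258A WX-02-23 list at 75.0%, and lost peaks at 12.2% and 10.8%. With only the WT doxycycline list reduced, to 13299 peaks, the shares were 63.8% of added peaks and 51.4% of sites that both lines had without doxycycline. Counting a peak as kept in either induced C258A list gave 52.6%. Without chromosome 19 the gene-dense autosomes held 11.97% of lost and 8.28% of added peaks. These classes come from different lists, which with chromosome 19 had 12.5% of no-doxycycline and 9.39% of doxycycline peaks there.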

Other observations

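In the C258A line the X chromosome lay apart from an autosome of like gene density. It had 290 no-doxycycline and 161 doxycycline peaks, a ratio of 0.555. Of the former 20.0% (15.80 to 24.98%) were kept, and 11.7% lay at siFOXA1 peaks, against 1.86 to 7.03% on the autosomes. X was not the extreme: the Y chromosome, with 71 no-doxycycline peaks, kept 16.9% and had 14.1% at siFOXA1 peaks. The gene-dense chromosomes 19 and 22 had lower ratios (0.386 and 0.5) and kept 18.7% and 18.3%. Chromosome 9, with 5.51 genes per Mb against 5.46 on X, had 549 and 555 peaks and kept 35.3%. The 2 chromosomes were not alike in score, which the kept share follows. No-doxycycline peaks had a median score of 151 and a median width of 497 bp on X, against 186 and 552 bp on chromosome 9. The part of score in the difference was not tested. In the WT line the ratio was 3.61 on X and 3.54 on chromosome 9, so X did not stand apart by that measure, and 57.5% of X and 74.3% of chromosome 9 peaks were kept.

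Lost peaks outside the parental DMSO list numbered 757, had a median score of 113 and a median width of 473 bp, and 221 lost peaks were in none of the other 10 lists.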
